A study of Mus musculus with 16 samples.

Results

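The collagen genes of the mouse were taken as every gene symbol of the form Col, a number, a and a number, as in Col4a1. This gave 44 of the 23420 genes in the count files. The rule used symbols and no measured value, but it was set with earlier results of these data known. They were read in 4 classes. The fibrillar class (types 1, 3, 5 and 11) had 8 members, the basement membrane class (types 4, 15 and 18) had 8, type 6 had 6 and the remaining types had 22. The libraries came from 8 male C57BL/6 mice. Of these, 4 were labelled as adipocyte-specific knockouts of Trib1, the gene of a pseudokinase that guides proteins to degradation, and 4 were labelled wild-type. Each mouse gave 1 library of adipocytes, freed from subcutaneous fat with collagenase, and 1 of whole liver, so that there were 16 poly-A RNA-seq libraries in 4 groups of 4. Among the knockout-labelled mice 2 were 76 and 2 were 70 days old, and among the wild-type mice 3 were 76 and 1 was 70 days old. No source used here names the promoter that drove the deletion, an allele that both genotypes carried, or the diet.

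Collagens are secreted proteins whose chains wind into a triple helix. Fibrillar collagens form the cables of connective tissue, and their chains are trimmed at both ends outside the cell and then cross-linked. Type 4 chains form the sheet of every basement membrane, including the one that wraps each fat cell, and types 15 and 18 sit at the border of that sheet. Type 6 forms beaded microfilaments around fat and muscle cells, and a fragment cut from the end of its alpha-3 chain, endotrophin, acts as a signal in fat. In both fat and liver, fibroblast-like cells (progenitors in fat, stellate cells in liver) are known as a main source of type 1 and type 3 collagen.

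The libraries held 28560887 to 53716669 counts, with 15279 to 16747 genes detected. Adipocyte markers (10 genes) summed to 37898 to 42016 CPM (counts relative to the library total, scaled by trimmed mean of M-values, TMM, within the tissue) in knockout-labelled and 27148 to 38599 CPM in wild-type adipocyte libraries, and hepatocyte markers (8 genes) to 98680 to 125389 CPM in knockout-labelled and 93330 to 122299 CPM in wild-type livers. Trib1 itself did not separate the labels. It stood at 1071 to 1408 CPM in knockout-labelled and 752 to 1293 CPM in wild-type adipocytes (log2 fold change 0.28 ± 0.18 SE, adjusted p = 0.241), and at 41.7 to 78.8 CPM in knockout-labelled and 51.4 to 72.3 CPM in wild-type livers (0.12 ± 0.18, adjusted p = 0.875), so the groups are called by their labels throughout. Where a deletion leaves part of a transcript, a count over the whole gene need not fall. The adipocyte library of knockout-labelled mouse ko_1137 stood apart for several collagens, and for the members it moved most the value without it is also given. No label says that replicates share a culture or a day, and every mouse is 1 replicate. In RNA pooled over many cells, as here from freed adipocytes and from whole liver, fewer cells of a type and less RNA per cell cannot be told apart.

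Collagens made up a larger share of the adipocyte than of the liver transcriptome. They took 0.330% to 0.510% of all counts in knockout-labelled adipocytes (mean 0.388% ± 0.0824 SD, n = 4) and 0.401% to 0.477% in wild-type adipocytes (0.428% ± 0.0352, n = 4), ranges that overlapped. In liver the share was 0.0927% to 0.113% in knockout-labelled and 0.109% to 0.129% in wild-type mice. The highest knockout-labelled adipocyte value belonged to mouse ko_1137, and without it the mean was 0.347%. The 100 highest genes of each tissue were also left out, among them Col4a1, so that this share covers the collagens without it. Its mean was 0.452% in knockout-labelled and 0.448% in wild-type adipocytes, so that the order of the means turned. In liver the mean was 0.194% in knockout-labelled and 0.223% in wild-type mice. Basement membrane members held 50.2% to 57.4% of the collagen counts in knockout-labelled and 53.1% to 59.4% in wild-type adipocytes. Fibrillar members held 35.7% to 41.0% in knockout-labelled and 31.2% to 38.5% in wild-type adipocytes. Type 6 members held 5.99% to 7.97% in knockout-labelled and 7.38% to 9.18% in wild-type adipocytes, and the 22 others 0.702% to 0.910% in knockout-labelled and 0.861% to 1.75% in wild-type adipocytes. In liver the basement membrane class held 72.2% to 79.9% of collagen counts in knockout-labelled and 69.6% to 83.6% in wild-type mice, with Col18a1 its largest member.

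Per kilobase of exon, which allows levels to be compared between genes, a few members carried each tissue. In knockout-labelled adipocytes Col5a3 (156 ± 27.6 CPM per kb, SD) and Col4a1 (154 ± 24.5) led, followed by Col4a2 (114 ± 15.2), Col15a1 (61.1 ± 7.94) and Col3a1 (55.2 ± 17.2). In wild-type adipocytes Col4a1 (176 ± 19.8 CPM per kb) led, followed by Col4a2 (106 ± 12.6), Col3a1 (87.9 ± 2.51), Col5a3 (66.3 ± 12.6) and Col15a1 (56.3 ± 3.02). Col5a3 and Col4a1 thus differed by less than their spread at the top of the knockout-labelled order, whereas in wild-type adipocytes Col4a1, Col4a2 and Col3a1 all stood above Col5a3. Among 21737 genes with a known length, Col5a3 ranked 388 per kb in knockout-labelled and 832 in wild-type adipocytes. In liver the same 2 members led in both genotypes, where Col18a1 stood alone at 110.1 ± 17.5 CPM per kb in knockout-labelled and 132 ± 13.2 in wild-type mice and the next member, Col5a3, at 10.002 ± 1.003 in knockout-labelled and 12.5 ± 4.14 in wild-type mice.

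The start regions of 5 members are shown because their transcripts carry the results below: the pair Col4a1 and Col4a2, which share a start region and did not pass the test, Col5a3, which rose, and Col3a1 and Col6a3, which fell. The sequences are RefSeq's on GRCm38.p6, 250 bases before to 50 after the annotated start, read on the gene's own strand, and 35 of the 44 members had at least 1 such window. Capitals mark, on either strand, the CCAAT box, the TATA box motif TATAAA and the GC box motif GGGCGG, and no marked matches of different motifs overlapped. The windows are chr8:11312777-11313076 (minus strand) for Col4a1, chr8:11312555-11312854 (plus) for Col4a2, chr9:20815018-20815317 (minus) for Col5a3, chr1:45311288-45311587 (plus) for Col3a1 and chr1:90843922-90844221 (minus) for Col6a3.
Col4a1: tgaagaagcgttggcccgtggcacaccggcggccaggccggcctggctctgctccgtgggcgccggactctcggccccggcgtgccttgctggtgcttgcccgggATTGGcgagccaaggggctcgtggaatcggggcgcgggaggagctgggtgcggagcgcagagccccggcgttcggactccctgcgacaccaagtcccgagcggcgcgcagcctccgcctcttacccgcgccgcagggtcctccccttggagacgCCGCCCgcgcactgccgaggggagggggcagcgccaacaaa
Col4a2: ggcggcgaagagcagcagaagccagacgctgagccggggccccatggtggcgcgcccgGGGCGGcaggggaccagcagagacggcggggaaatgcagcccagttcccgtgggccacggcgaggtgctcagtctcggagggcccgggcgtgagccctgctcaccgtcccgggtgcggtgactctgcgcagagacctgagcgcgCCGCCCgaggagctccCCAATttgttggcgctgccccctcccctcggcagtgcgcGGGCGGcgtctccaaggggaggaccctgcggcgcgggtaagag
Col5a3: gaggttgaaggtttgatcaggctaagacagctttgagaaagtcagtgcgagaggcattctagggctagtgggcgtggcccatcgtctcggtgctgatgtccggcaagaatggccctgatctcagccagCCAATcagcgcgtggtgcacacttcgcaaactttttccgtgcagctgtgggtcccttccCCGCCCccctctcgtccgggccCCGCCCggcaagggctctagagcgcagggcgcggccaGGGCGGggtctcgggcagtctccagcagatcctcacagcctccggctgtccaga
Col3a1: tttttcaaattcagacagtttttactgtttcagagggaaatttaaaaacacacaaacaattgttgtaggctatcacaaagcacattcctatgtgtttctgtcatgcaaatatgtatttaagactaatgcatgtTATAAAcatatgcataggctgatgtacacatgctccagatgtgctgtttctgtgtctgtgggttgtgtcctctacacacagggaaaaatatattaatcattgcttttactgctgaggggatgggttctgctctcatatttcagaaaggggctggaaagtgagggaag
Col6a3: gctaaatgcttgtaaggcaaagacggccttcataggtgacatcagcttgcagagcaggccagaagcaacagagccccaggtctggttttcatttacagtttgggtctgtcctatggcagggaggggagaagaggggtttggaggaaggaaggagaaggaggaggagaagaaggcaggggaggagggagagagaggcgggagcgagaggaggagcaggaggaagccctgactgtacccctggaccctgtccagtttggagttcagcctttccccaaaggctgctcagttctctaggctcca
The windows of Col4a1 and Col4a2 read away from each other and shared 78 bases. In the gene models the first exons of this head-to-head pair overlapped by 22 bases, and since the strand setting of the counting is not known, reads there cannot be assigned to one gene. Their windows held 37 and 33 CpG pairs, that of Col5a3 20, that of Col6a3 3 and that of Col3a1 0, against a median of 11.5 over the 38 member windows and 7 over 32851 windows of all genes. GGGCGG occurred in 60.5% of member windows against 35.7% of all windows, CCAAT in 34.2% against 37.4%, and TATAAA in 13.2% against 13.6%. The pattern TTNNGNAA, a loose form of the C/EBP site, occurred in 36.8% of member windows against 40.7% of all windows, with 1 match each in Col5a3 and Col6a3 and 2 in Col3a1. C/EBP-alpha is a known target of Trib1-guided degradation.

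In knockout-labelled adipocytes most collagen genes that changed were lower, and the exceptions were Col5a3 and Col12a1. Of the 44 members 32 passed the count filter. Of these, 2 were higher, 14 were lower and 16 did not pass the test at an adjusted p under 0.05 (edgeR quasi-likelihood test, Benjamini-Hochberg over 13795 genes). The same rule called 35.2% of all tested genes, with 18% higher and 17.1% lower. The median log2 fold change was -0.76 over the 32 members and -0.01 over all tested genes. The 2 groups did not overlap for 11 members, against 33.9% of all tested genes. With library totals as the scale the median of all genes moved by -0.19, and 1293 genes were called higher and 3899 lower in place of 2487 and 2362. Of the 14 lower members, 4 (Col4a4, Col13a1, Col9a3 and Col11a1) passed the filter through the wild-type libraries alone, so their counts could hardly have come out higher, and 10 passed in both groups. The 12 members not tested held at most 25 counts summed over the knockout-labelled and 57 over the wild-type adipocyte libraries: Col9a1, Col19a1, Col10a1, Col22a1, Col2a1, Col25a1, Col24a1, Col9a2, Col8a2, Col6a5, Col6a4 and Col4a6.

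**Figure D1:**
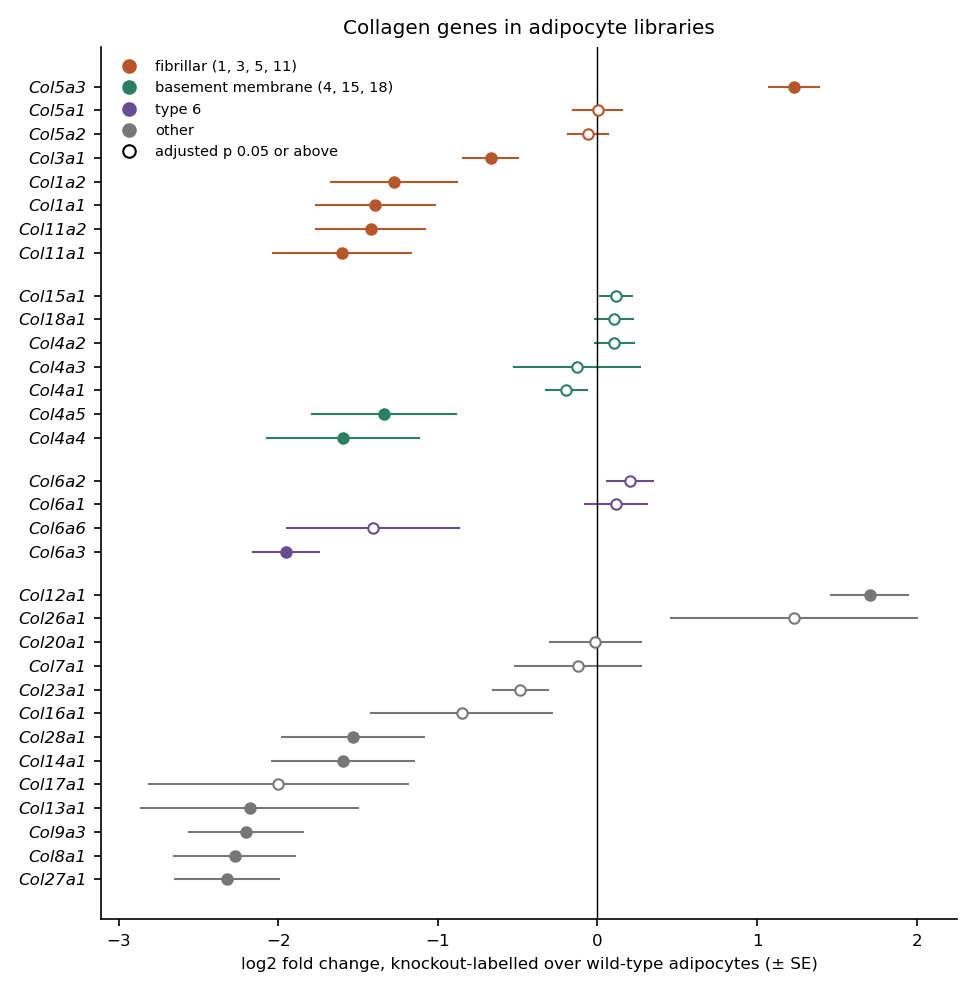
Log2 fold change, knockout-labelled over wild-type, of the 32 tested collagen genes in adipocyte libraries (n = 4 each), by class. Bars are ± SE and open points have an adjusted p of 0.05 or above. Col5a3 and Col12a1 lie to the right of 0 at 1.23 and 1.71, and the 14 other filled points lie to the left.

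Col5a3 encodes the alpha-3 chain of type 5, a minor fibrillar collagen that regulates fibril assembly. It stood at 1205, 885, 875 and 849 CPM in knockout-labelled adipocytes, against 372, 521, 373 and 357 CPM in wild-type adipocytes. All 4 knockout-labelled libraries lay above all wild-type ones, with mouse ko_1137 the highest. The rise was 2.35-fold (log2 1.23 ± 0.16 SE, adjusted p = 0.000738), and without mouse ko_1137 it was 1.10 on the log2 scale (adjusted p = 0.00094). The other 2 type 5 chains did not pass the test. Col5a1, the chain common to type 5 trimers, had a log2 fold change of 0.00 ± 0.16 (adjusted p = 0.994, 95% interval -0.35 to 0.36), and Col5a2 of -0.06 ± 0.13 (adjusted p = 0.749, interval -0.35 to 0.23). Col5a3 was thus the fibrillar member that moved against its class.

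The type 1 and type 3 transcripts, which build most fibrils of connective tissue, were lower. Col3a1, the single chain of type 3, stood at 449, 246, 282 and 253 CPM in knockout-labelled and 483, 482, 481 and 509.9 CPM in wild-type adipocytes. The wild-type libraries lay close together and the knockout-labelled ones below them, mouse ko_1137 nearest. The fold change was -0.67 ± 0.18 on the log2 scale (adjusted p = 0.0179), and -0.91 (adjusted p = 0.000314) without mouse ko_1137. Col1a1, the main chain of type 1, stood at 72.1, 25.4, 21.98 and 22.5 CPM in knockout-labelled and 113, 96.6, 96.9 and 65.9 CPM in wild-type adipocytes. Here mouse ko_1137 fell inside the wild-type range and the other 3 knockout-labelled libraries far below it. The log2 fold change was -1.39 ± 0.38 (adjusted p = 0.019), and -1.996 (adjusted p = 0.000123) without mouse ko_1137. Col1a2, the second chain of type 1, followed the same libraries, with 104, 33.4, 33.8 and 29.4 CPM in knockout-labelled and 162, 128, 105 and 91.5 CPM in wild-type adipocytes (log2 -1.27 ± 0.40, adjusted p = 0.033, and -1.91, adjusted p = 0.000223, without mouse ko_1137). The same knockout-labelled library was the highest for Col1a1, Col1a2 and Col3a1.

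Both type 11 chains, minor fibrillar collagens best known from cartilage, were lower at very low levels. Col11a2 had 0.275 to 0.491 CPM in knockout-labelled and 0.569 to 1.43 CPM in wild-type adipocytes (log2 -1.42 ± 0.35, adjusted p = 0.0122), and Col11a1 0.115 to 0.249 CPM in knockout-labelled and 0.341 to 1.01 CPM in wild-type adipocytes (log2 -1.60 ± 0.44, adjusted p = 0.0194). Of the 8 fibrillar members 1 was thus higher and 5 were lower. Markers of fibroblasts and progenitors moved with these members. Of 15 marker genes 11 were lower, beside 17.1% of all tested genes, none was higher and none was at 0. Their summed level was 4283 to 5264 CPM in knockout-labelled and 9954 to 11377 CPM in wild-type adipocytes. Gsn, an actin-severing protein gene, made up most of that sum (4155 ± 305 CPM in knockout-labelled and 9604 ± 653 CPM in wild-type), and Lum, a collagen-binding proteoglycan gene, stood at 5.96 ± 0.862 CPM in knockout-labelled and 16.5 ± 4.61 CPM in wild-type. Mouse ko_1137 had the highest sum of the knockout-labelled libraries, 5264 CPM, and also their highest macrophage marker sum, 486 CPM against 91.1 to 224 CPM in the other 3. In wild-type adipocytes the macrophage markers summed to 196 to 439 CPM, and of 9 tested 0 were called between the genotypes. The part of these cells in the collagen results was not tested.

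**Figure D2:**
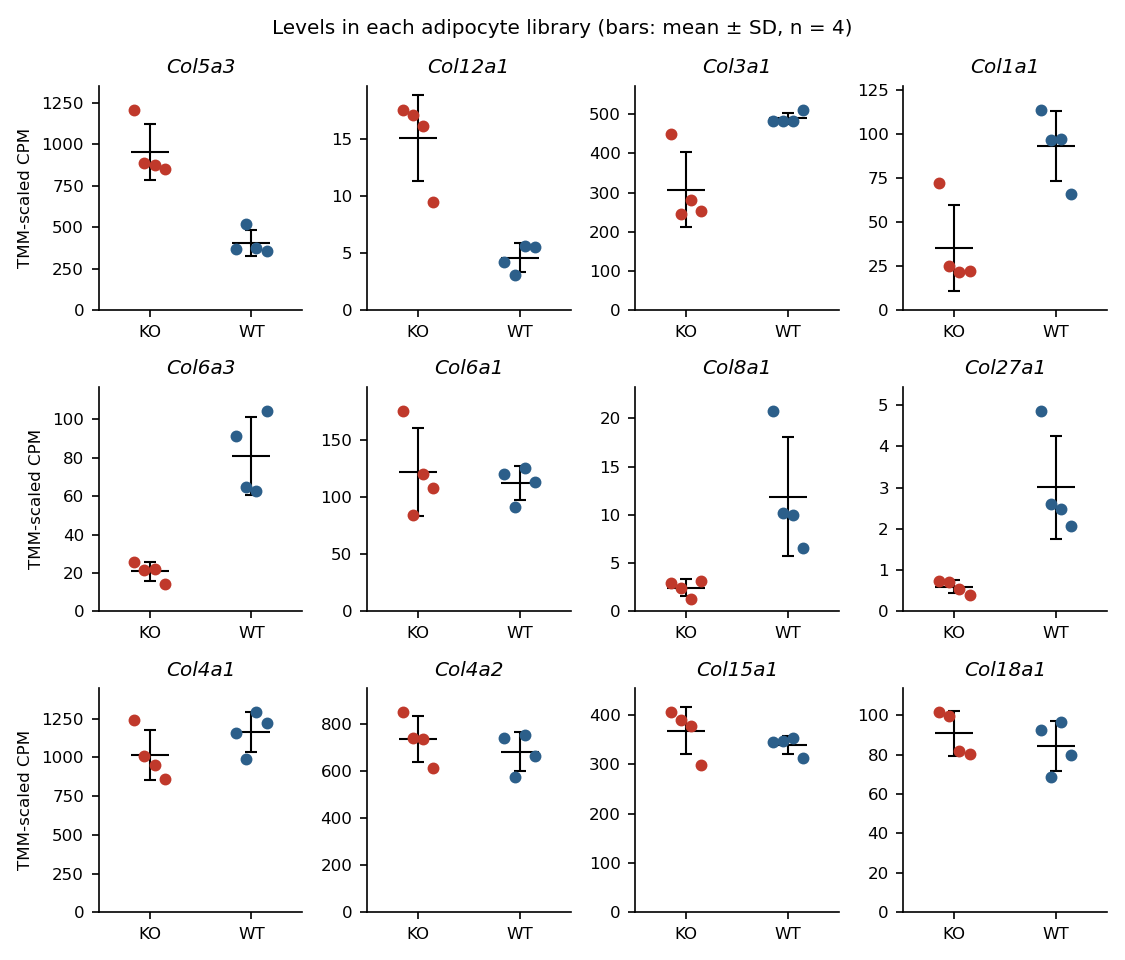
TMM-scaled CPM of 12 collagen genes in each adipocyte library (KO, knockout-labelled; WT, wild-type), with mean ± SD (n = 4). Col5a3 and Col12a1 are higher and Col6a3, Col8a1 and Col27a1 lower in all 4 knockout-labelled libraries than in any wild-type one, while Col4a1, Col4a2, Col15a1 and Col18a1 overlap.

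The abundant basement membrane collagens did not pass the test in adipocytes. Col4a1 stood at 1242, 1011, 954 and 863 CPM in knockout-labelled and 1156, 987, 1292 and 1222 CPM in wild-type adipocytes. The groups overlapped, and the log2 fold change was -0.19 ± 0.14 (adjusted p = 0.291, 95% interval -0.50 to 0.11). Its partner chain Col4a2 stood at 851, 739.9, 737 and 611 CPM in knockout-labelled and 739, 576, 752 and 665 CPM in wild-type adipocytes (log2 0.10 ± 0.13, adjusted p = 0.549). Col15a1, whose product bridges basement membranes and fibrils, had a log2 fold change of 0.12 ± 0.11 (adjusted p = 0.414) and Col18a1, the source of the fragment endostatin, of 0.11 ± 0.13 (adjusted p = 0.537). Their 95% intervals were -0.12 to 0.36 and -0.17 to 0.39. The 2 members of the class that fell were scarce. Col4a4, a chain of the kidney filter, had 0.0273 to 0.249 CPM in knockout-labelled and 0.414 to 0.630 CPM in wild-type adipocytes (log2 -1.60 ± 0.48, adjusted p = 0.0287), and Col4a5, its partner chain, 0.462 to 2.06 CPM in knockout-labelled and 1.66 to 3.79 CPM in wild-type adipocytes (log2 -1.34 ± 0.46, adjusted p = 0.0457, and -1.95, adjusted p = 0.00381, without mouse ko_1137), while Col4a3 had a log2 fold change of -0.13 ± 0.40 (adjusted p = 0.829).

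Type 4 chains are also made by vessel cells, and markers of those cells were lower in the same libraries. All 12 endothelial markers were lower, beside 17.1% of all tested genes. They summed to 219 to 505 CPM in knockout-labelled and 791 to 2267 CPM in wild-type adipocytes. Of 9 tested mural cell markers 8 were lower, at a summed 397 to 511 CPM in knockout-labelled and 422 to 595 CPM in wild-type adipocytes. No marker of either list was at 0. Emcn, an endothelial sialomucin gene, stood at 9.64 ± 2.88 CPM in knockout-labelled and 37.2 ± 16.2 CPM in wild-type adipocytes, and Abcc9, a channel subunit gene of pericytes, at 3.78 ± 1.03 CPM in knockout-labelled and 18.3 ± 3.20 CPM in wild-type ones. The part of vessel cells in the levels of the type 4 genes was not tested.

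Within type 6 the chains parted. Col6a3, which carries the endotrophin fragment, stood at 25.9, 21.3, 21.98 and 14.3 CPM in knockout-labelled adipocytes, against 91.4, 64.8, 62.7 and 104 CPM in wild-type adipocytes. Every knockout-labelled library lay below every wild-type one by a wide gap. The level was 3.87-fold lower (log2 -1.95 ± 0.21, adjusted p = 0.000289), the smallest adjusted p among the members. Col6a1, with 175, 84.3, 120.1 and 108 CPM in knockout-labelled and 119.9, 91.4, 126 and 113 CPM in wild-type adipocytes, had a log2 fold change of 0.12 ± 0.20 (adjusted p = 0.679) and Col6a2 one of 0.20 ± 0.15 (adjusted p = 0.322). The sign of Col6a1 turned without mouse ko_1137 (-0.11) and with library totals as the scale (-0.06), so no direction is given for it. Col6a6, an alternative to the alpha-3 chain, had 0.144 to 0.642 CPM in knockout-labelled and 0.487 to 1.32 CPM in wild-type adipocytes and did not pass (log2 -1.41 ± 0.54, adjusted p = 0.0697).

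Among the other types, Col12a1 was higher and 6 members were lower. Col12a1 encodes type 12, a large collagen that binds along the surface of fibrils. It stood at 17.6, 17.1, 16.1 and 9.49 CPM in knockout-labelled and 4.20, 3.08, 5.66 and 5.58 CPM in wild-type adipocytes. The groups did not overlap, and the rise was 3.26-fold (log2 1.71 ± 0.25, adjusted p = 0.0012). Type 14, a related fibril-associated collagen, went the other way. Col14a1 stood at 5.57, 2.26, 2.13 and 1.33 CPM in knockout-labelled and 13.2, 8.82, 7.89 and 4.36 CPM in wild-type adipocytes (log2 -1.59 ± 0.45, adjusted p = 0.0221), with mouse ko_1137 above the lowest wild-type library, and without that mouse the log2 fold change was -2.16 (adjusted p = 0.00274). Another fibril-associated chain, Col9a3, had 0.0577 to 0.138 CPM in knockout-labelled and 0.484 to 0.621 CPM in wild-type adipocytes (log2 -2.20 ± 0.36, adjusted p = 0.00227), but an exon of it overlaps the antisense gene Tcfl5, so its reads are uncertain.

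Col8a1, a short-chain network collagen of vessel walls, stood at 2.93, 2.45, 1.25 and 3.17 CPM in knockout-labelled and 20.7, 10.2, 9.98 and 6.53 CPM in wild-type adipocytes. It was 4.83-fold lower (log2 -2.27 ± 0.39, adjusted p = 0.00256), with every knockout-labelled library below every wild-type one. Col27a1, a fibrillar collagen of cartilage outside the classic types, stood at 0.733, 0.705, 0.545 and 0.404 CPM in knockout-labelled and 4.86, 2.62, 2.48 and 2.07 CPM in wild-type adipocytes. It was 4.99-fold lower (log2 -2.32 ± 0.33, adjusted p = 0.00119), again without overlap. Col13a1, a transmembrane collagen, had 0.164 to 0.871 CPM in knockout-labelled and 0.877 to 5.26 CPM in wild-type adipocytes (log2 -2.18 ± 0.69, adjusted p = 0.0339). Col28a1, a collagen best known around Schwann cells in the mouse, had 1.36 to 2.32 CPM in knockout-labelled and 1.66 to 8.56 CPM in wild-type adipocytes (log2 -1.53 ± 0.45, adjusted p = 0.0264). Of 5 Schwann cell markers 2 were lower in the same libraries, beside 17.1% of all tested genes. The 5 summed to 15.4 to 46.7 CPM in knockout-labelled and 25.98 to 71.6 CPM in wild-type adipocytes. The part of these cells in the level of Col28a1 was not tested. The 6 members of this class that did not pass ranged in log2 fold change from -1.999 (Col17a1) to 1.23 (Col26a1), with adjusted p of 0.0582 (Col23a1) or more.

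The firmness of these calls varied. Col5a3, Col12a1, Col6a3, Col27a1 and Col8a1 kept their call in every alternative run, which is 5 of 16. Leaving out 1 library at a time gave 6 to 16 lower members, with 6 without knockout-labelled mouse ko_1152, 8 without knockout-labelled mouse ko_1151 and 7 without wild-type mouse wt_1135. Col3a1 lost its call without knockout-labelled mouse ko_1139, ko_1151 or ko_1152 and also with all 16 libraries in the fit (-0.65, adjusted p = 0.0544), Col1a1 without ko_1139, ko_1152 or wt_1135, and Col14a1 without ko_1139, ko_1151, ko_1152 or wt_1135. Col1a2 and Col4a5 lost theirs in 6 of the 8 such fits (without ko_1139, ko_1151, ko_1152, wt_1135, wt_1136 or wt_1138). Of the scarcer members, Col28a1 lost its call without ko_1151, ko_1152, wt_1135 or wt_1138, Col4a4 without ko_1152, wt_1136, wt_1138 or wt_1153, Col13a1 without ko_1151, ko_1152 or wt_1135 and Col11a1 without ko_1152 or wt_1135. All 16 called members kept their direction within the 76-day mice (2 knockout-labelled, 3 wild-type) and within the 70-day mice (2 knockout-labelled, 1 wild-type). The same libraries gave the calls, so this was largely set in advance and adds no support. A fit to the 76-day mice alone called 2 higher and 4 lower. It ended 10 calls: Col3a1 (log2 -0.47, adjusted p = 0.245), Col1a1 (-1.07, adjusted p = 0.111), Col1a2 (-0.93, adjusted p = 0.195), Col14a1, Col11a1, Col11a2, Col13a1, Col4a4, Col4a5 and Col9a3.

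Most lists of genes that act on collagen had more lower than higher members in the same adipocytes. Over all tested genes 18% were higher and 17.1% lower. Of the tested genes for folding and modification inside the cell 1 was higher and 7 were lower of 19, among them Plod2, the lysyl hydroxylase of collagen ends, at 4.11 ± 0.802 CPM in knockout-labelled and 16.0 ± 2.40 CPM in wild-type adipocytes (log2 -1.963 ± 0.17, adjusted p = 9.99e-05). Tmem38b, a channel gene needed for collagen secretion, was the one that rose, at 44.1 ± 6.33 CPM in knockout-labelled and 25.9 ± 3.54 CPM in wild-type adipocytes (log2 0.77 ± 0.13, adjusted p = 0.00238). Of 7 genes that trim the ends of procollagen 4 were lower, led by Pcolce, an enhancer of that step (log2 -1.93 ± 0.27, adjusted p = 0.000993), and Tll1, a protease (-2.33 ± 0.34, adjusted p = 0.00131). Cross-linking genes were split, with 2 higher and 2 lower of 7. Lox, the lysyl oxidase of fibrils, rose to 355 ± 14.4 CPM in knockout-labelled adipocytes, against 128 ± 53.8 CPM in wild-type ones (log2 1.48 ± 0.26, adjusted p = 0.00283), while Loxl1, a relative, fell (-1.19 ± 0.26, adjusted p = 0.0074).

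Receptors, degradation and partner genes followed. Of 12 collagen receptor genes 4 were lower, led by Ddr2, a receptor kinase for fibrillar collagen (log2 -1.12 ± 0.18, adjusted p = 0.00226), and Itga1, an integrin chain (-0.64 ± 0.15, adjusted p = 0.0103). Of 15 degradation genes 2 were higher and 8 lower, and the 2 with the smallest p were inhibitors of matrix proteases: Timp4 (-2.08 ± 0.20, adjusted p = 0.000154) and Timp3 (-1.54 ± 0.30, adjusted p = 0.00427). Of 15 basement membrane partners 2 were higher and 8 lower. Nid2, a nidogen that links laminin to type 4 collagen, rose to 166 ± 29.4 CPM in knockout-labelled adipocytes, against 63.1 ± 11.8 CPM in wild-type ones (log2 1.40 ± 0.16, adjusted p = 0.000381), and Lama3, a laminin chain, fell (-2.69 ± 0.47, adjusted p = 0.0028). The TGF-beta pathway, a known inducer of fibrillar collagen, had 3 higher and 4 lower of 17, with Tgfb2, a ligand, at 8.33 ± 3.35 CPM in knockout-labelled and 1.23 ± 0.703 CPM in wild-type adipocytes (log2 2.74 ± 0.40, adjusted p = 0.00136) and Smad7, an inhibitor, at 44.7 ± 7.52 CPM in knockout-labelled and 24.1 ± 5.44 CPM in wild-type ones (log2 0.89 ± 0.18, adjusted p = 0.00526). List medians on the log2 scale were -0.15 for folding, -1.02 for trimming, -0.42 for cross-linking, -0.72 for receptors, -0.92 for degradation, -0.68 for basement membrane partners and -0.03 for the TGF-beta pathway, beside -0.01 for all genes. The TGF-beta counts were near the shares of all tested genes, 18% higher and 17.1% lower.

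Chains of one collagen type can be compared directly as the ratio of their levels per kb within a library, which no scaling between libraries can alter. Col5a3 per Col5a1 was 13.9 to 16.3 in knockout-labelled and 5.39 to 9.27 in wild-type adipocytes. Col6a3 per Col6a1 was 0.0501 to 0.0957 in knockout-labelled and 0.189 to 0.349 in wild-type adipocytes. Neither pair of ranges overlapped. Col4a1 per Col4a2 was also apart, at 1.26 to 1.42 in knockout-labelled and 1.52 to 1.79 in wild-type adipocytes, although neither gene passed its own test. For each of these 3 ratios the exact two-sided permutation p was 0.0286, the smallest that 4 against 4 can give, and after Benjamini-Hochberg adjustment over the 12 ratios (6 pairs in 2 tissues, chosen after the values were seen) it was 0.114, so none passed. The ratios Col1a1 per Col1a2 (0.587 to 0.692 in knockout-labelled, 0.632 to 0.833 in wild-type adipocytes), Col5a1 per Col5a2 (0.440 to 0.541 in knockout-labelled, 0.364 to 0.551 in wild-type) and Col6a2 per Col6a1 (0.823 to 1.04 in knockout-labelled, 0.805 to 0.882 in wild-type) overlapped between the genotypes. In liver all 6 overlapped, with adjusted p of 0.137 or more by the same exact permutation test.

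**Figure D3:**
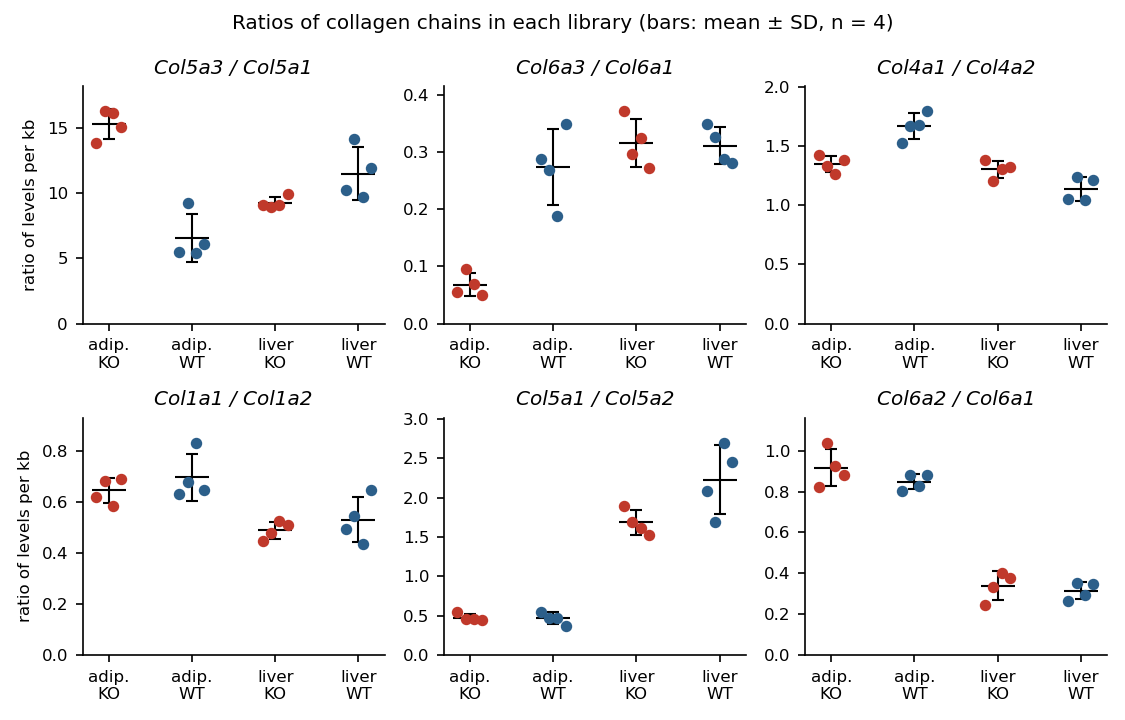
Ratio of the levels per kb of 2 chains in each library, by tissue and genotype (KO, knockout-labelled; WT, wild-type), with mean ± SD (n = 4). Col5a3 / Col5a1 is above and Col6a3 / Col6a1 below the wild-type range in every knockout-labelled adipocyte library, while the lower row overlaps between genotypes in both tissues.

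In liver no collagen gene passed the test between genotypes. Of 29 tested members 0 were called, as 0.0226% of all 13288 tested genes were by edgeR, and DESeq2 also called 0 collagen genes. At an unadjusted p under 0.05 there were 2. Col11a2 stood at 2.42, 3.30, 2.44 and 2.15 CPM in knockout-labelled and 1.66, 1.23, 1.76 and 2.13 CPM in wild-type livers (log2 0.59 ± 0.22, adjusted p = 0.515), the one tested member whose groups did not overlap, against 4.66% of all tested genes. Col12a1 stood at 9.44, 3.21, 2.54 and 1.81 CPM in knockout-labelled and 2.11, 0.963, 2.169 and 2.13 CPM in wild-type livers (log2 1.18 ± 0.48, adjusted p = 0.542), and mouse ko_1137 alone was far above the others.

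The collagens that were high in liver did not pass the test either. Col27a1 (mean 51.5 CPM in knockout-labelled and 53.9 in wild-type livers) and Col14a1 (39.3 in knockout-labelled and 36.6 in wild-type) followed Col18a1 and Col5a3 per kb. Given below are Col18a1, members with small p and the leader of each class in adipocytes, not all of them high in liver. Col18a1, of which hepatocytes are a known source, stood at 589.7, 815, 727 and 859.5 CPM in knockout-labelled and 998, 951, 813 and 835 CPM in wild-type livers (log2 -0.27 ± 0.13, adjusted p = 0.604, 95% interval -0.55 to 0.02). Col5a2 had a log2 fold change of 0.40 ± 0.19 (adjusted p = 0.598) and Col5a3 one of -0.33 ± 0.19 (adjusted p = 0.673). Col4a1, at 25.7 to 31.4 CPM in knockout-labelled and 25.01 to 29.6 CPM in wild-type livers, had one of 0.08 ± 0.09 (adjusted p = 0.837), and Col6a1, at 9.59 to 10.4 CPM in knockout-labelled and 7.44 to 12.6 CPM in wild-type livers, one of 0.01 ± 0.15 (adjusted p = 0.986), whose sign turned in several alternatives. Col8a1, at 0.128 to 0.516 CPM in knockout-labelled and 0.266 to 0.511 CPM in wild-type livers, had one of -0.39 ± 0.45 (adjusted p = 0.828). The median log2 fold change was 0.01 over the 29 members. No gene of the stellate cell list, nor of the fibroblast, endothelial, mural or other lists, was called in liver. Stellate cell markers summed to 111 to 133 CPM in knockout-labelled and 116 to 137 CPM in wild-type livers.

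The genotype effect differed between the tissues for 8 of 35 tested members (19.1% of all 14898 genes tested for this difference, 10.4% with a more positive and 8.73% with a more negative effect in adipocytes). These differences are of log2 fold changes, adipocytes minus liver, from a fit to all 16 libraries. Col5a3 had the 1 positive difference, 1.58 ± 0.28 (adjusted p = 0.00166), as its level was higher in knockout-labelled adipocytes and not in knockout-labelled livers. The 7 negative ones were Col6a3 (-1.98 ± 0.26, adjusted p = 0.000162), Col11a2 (-1.99 ± 0.41, adjusted p = 0.00346), Col27a1 (-2.22 ± 0.51, adjusted p = 0.00685), Col14a1 (-1.66 ± 0.47, adjusted p = 0.0204), Col9a3 (-2.14 ± 0.61, adjusted p = 0.0214), Col13a1 (-2.56 ± 0.83, adjusted p = 0.0399) and Col8a1 (-1.86 ± 0.62, adjusted p = 0.045). With the mouse as a replicate block the lower count was 5, since Col13a1 (-2.68, adjusted p = 0.0503) and Col8a1 (-1.77, adjusted p = 0.0933) no longer passed. These 2 were also the least firm when libraries were left out, since Col13a1 lost its call in 9 and Col8a1 in 11 of the 16 fits without 1 library, and Col8a1 also with halved counts (-1.87, adjusted p = 0.0627). Col14a1 also lost its call without the adipocyte library of wild-type mouse wt_1135 (-1.38, adjusted p = 0.052). In the fits within a tissue, Col9a3 passed the count filter alone only in wild-type adipocytes (93 counts, against 19 in knockout-labelled ones). The filter thus favoured a negative difference for it, and its overlap with Tcfl5 holds here too. Col13a1 also failed the filter alone in knockout-labelled adipocytes but passed in both liver groups.

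For the leading members of the other classes no difference between tissues was shown. Col4a1 differed by -0.24 ± 0.17 (adjusted p = 0.347), and Col6a1 by 0.13 ± 0.27 (adjusted p = 0.774), a sign that turned in 3 alternatives. Col12a1, called in adipocytes and not in liver, differed by 0.57 ± 0.58 (adjusted p = 0.528, 95% interval -0.65 to 1.79). Col1a1 (-1.14 ± 0.53, adjusted p = 0.141), Col1a2 (-1.17 ± 0.50, adjusted p = 0.112) and Col3a1 (-0.45 ± 0.35, adjusted p = 0.402) also did not pass, so that their fall in adipocytes was not shown to differ from liver.

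**Figure D4:**
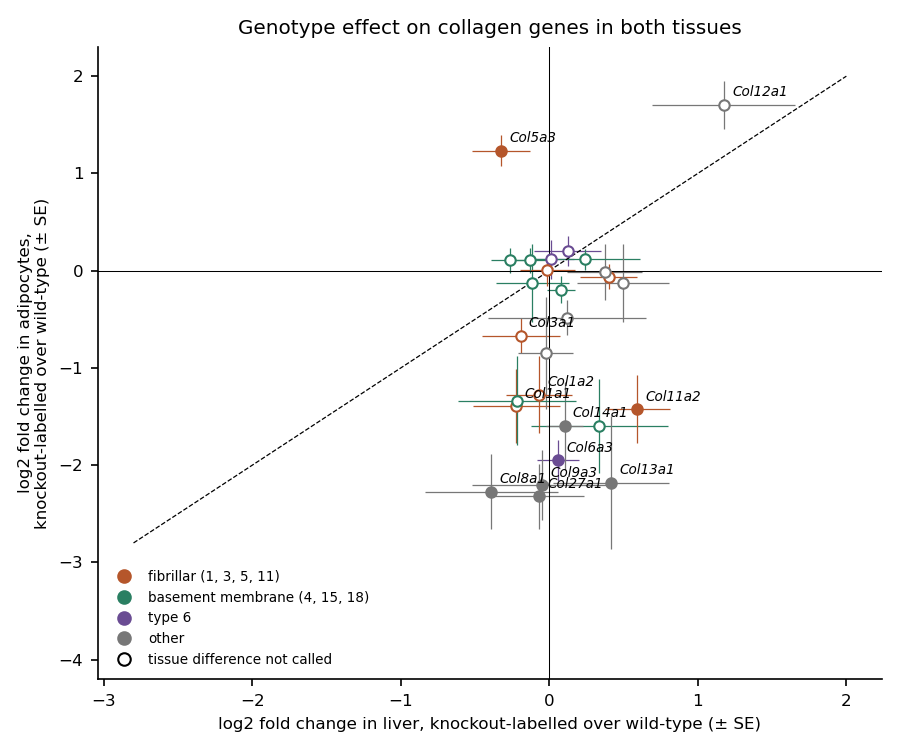
Log2 fold change of the tested collagen genes, knockout-labelled over wild-type, in liver (x axis) and adipocytes (y axis), with SE bars, n = 4 per group. Filled points have a called difference between tissues, and the dashed line marks equal effects. Col5a3 is above the line and Col6a3, Col27a1 and Col11a2 are among those below it, while Col12a1 is positive in both.

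Between wild-type adipocytes and wild-type liver 7 of 8 tested fibrillar and 3 of 4 tested type 6 members were higher in adipocytes. The basement membrane class was divided. Of 32 tested members 18 were higher and 7 lower in adipocytes, where 40.5% and 37.2% of all 14366 tested genes were (77.6% in all), so the share of members called was near that of all genes. Of the 18 higher members 5 (Col8a1, Col11a1, Col17a1, Col23a1 and Col28a1) passed the count filter through the adipocyte libraries alone. Of the 7 lower ones Col24a1 passed through the liver libraries alone. For these a call in the other direction was hardly possible. The groups did not overlap for 24 members, against 73.4% of all tested genes. CPM values in this comparison are scaled over these 8 libraries. With library totals as the scale the median of all genes moved by 0.65 on the log2 scale, and the folds of the members moved by about as much, so the folds below hold relative to that choice. Collagenase-freed cells are set here against whole liver, and the preparation cannot be told apart from the tissue.

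Basement membrane members moved in both directions. Col15a1 stood at 295, 296, 301 and 267 CPM in adipocytes and 5.48, 1.39, 2.498 and 4.85 CPM in liver. It was 80.7-fold higher in adipocytes (log2 6.33 ± 0.36, adjusted p = 3.63e-08, and 6.98 with library totals). Col18a1, of the same multiplexin family, stood at 78.9, 58.6, 82.4 and 68.2 CPM in adipocytes and 1250.2, 1173, 1003 and 1046 CPM in liver. It was 15.5-fold lower in adipocytes (log2 -3.96 ± 0.17, adjusted p = 3.71e-09, and -3.31 with library totals). Col4a1 stood at 985, 843, 1104 and 1043 CPM in adipocytes and 37.1, 32.2, 30.9 and 32.3 CPM in liver (log2 4.91 ± 0.16, adjusted p = 4.22e-10), and Col4a2 followed it (4.35 ± 0.16, adjusted p = 1.05e-09). Col4a3 was lower (-1.52 ± 0.39, adjusted p = 0.00451), and Col4a4 and Col4a5 did not pass.

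Of the fibrillar members 7 were higher in adipocytes and Col11a2 was lower (log2 -1.31 ± 0.32, adjusted p = 0.00304). The log2 fold changes of 6 of the 7 were 4.96 ± 0.18 for Col5a2, 3.53 ± 0.26 for Col3a1, 3.02 ± 0.28 for Col1a1, 2.69 ± 0.23 for Col1a2, 2.69 ± 0.19 for Col5a1 and 1.86 ± 0.23 for Col5a3. Col11a1 had 4 counts in wild-type liver, all in 1 library, so its fitted 3.78 ± 0.82 depends on the prior count of the fit, and it was 7.35 without that library. Col5a3 was thus the fibrillar gene with the smallest rise, at 317, 445, 319 and 305 CPM in adipocytes and 63.0, 98.3, 82.6 and 138 CPM in liver. The proportion of type 5 chains differed too. Col5a3 per Col5a1 per kb was 5.39 to 9.27 in wild-type adipocytes and 9.70 to 14.2 in wild-type livers. Col5a1 per Col5a2 was 0.364 to 0.551 in wild-type adipocytes and 1.69 to 2.69 in wild-type livers, and neither difference was tested. Col6a1, Col6a2 and Col6a3 were all higher in adipocytes, by 2.98 ± 0.18, 4.40 ± 0.20 and 2.81 ± 0.19 on the log2 scale.

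**Figure D5:**
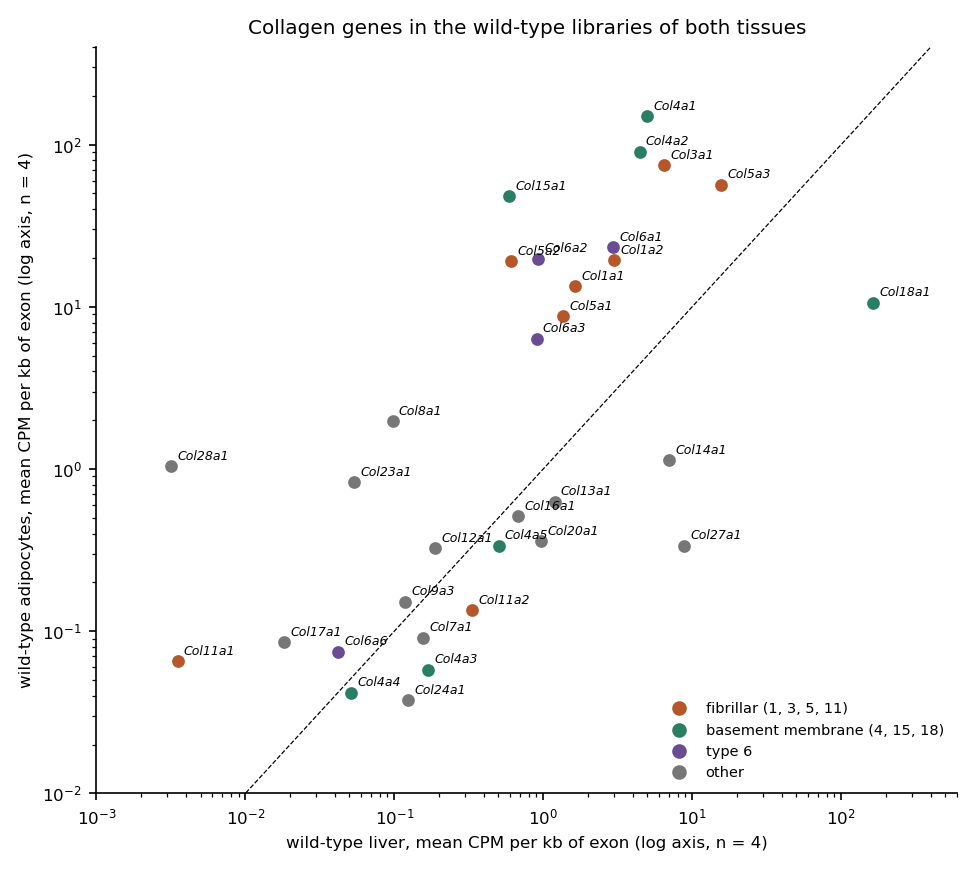
Mean level per kb of exon of the 32 tested collagen genes in wild-type adipocytes (y axis) against wild-type liver (x axis), both log axes, n = 4 libraries each. The dashed line marks equal levels. Col15a1 and Col28a1 lie far above it, and Col18a1, Col27a1 and Col14a1 below it.

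Among the other types, 5 were higher and 4 lower in adipocytes. Col8a1 was higher (log2 4.33 ± 0.40, adjusted p = 2.14e-06), as were Col23a1, a transmembrane collagen (3.95 ± 0.29, adjusted p = 2.66e-07), Col17a1, a hemidesmosome collagen (2.21 ± 0.78, adjusted p = 0.0236), and Col12a1 (0.78 ± 0.30, adjusted p = 0.0334). Wild-type livers held 58 counts of Col8a1, 34 of Col23a1 and 12 of Col17a1. Col28a1 had 5.96, 2.92, 7.31 and 1.42 CPM in adipocytes, while in liver it had counts in 1 of 4 wild-type libraries, 2 counts in all. Its fitted log2 fold change of 7.75 ± 0.86 (adjusted p = 9.24e-06) therefore depends on the prior count of the fit and is no bound. The lower ones were Col27a1 (-4.70 ± 0.42, adjusted p = 1.72e-06), at 4.14, 2.23, 2.12 and 1.77 CPM in adipocytes and 58.3, 31.8, 59.6 and 119 CPM in liver, Col14a1 (-2.63 ± 0.27, adjusted p = 4.72e-06), Col24a1, a minor fibrillar collagen (-1.70 ± 0.43, adjusted p = 0.00406), and Col20a1, a fibril-associated collagen (-1.44 ± 0.29, adjusted p = 0.000804). Of the 25 calls 20 held in every alternative run. With library totals as the scale Col11a2, Col24a1 and Col4a3 lost theirs, and Col12a1 and Col17a1 lost theirs when single libraries were left out: Col12a1 without adipocyte library wt_1138 or wt_1153 or liver library wt_1136, and Col17a1 without adipocyte library wt_1135 or liver library wt_1135 or wt_1138.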

How the data were processed

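RNA of adipocytes and liver was sequenced from poly-A libraries. Each deposited file holds the authors' raw read count per gene symbol for 1 library, made with bcl2fastq 2.17, STAR 2.5.2b and featureCounts 1.5.0 on mm10, per the submitters' processing notes. The annotation and the strand setting are not known from them. Of counts between 1 and 20, 77.9% were even, as when both mates of a pair are counted, so halved counts were an alternative. Groups came from the labelled genotype and tissue. No 2 libraries of a group differed as little as sampling noise (smallest chi-square per degree of freedom 32.1).

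The members, lists, pairs and tests were chosen with earlier results of these data known. Counts were tested with edgeR 4.0.16 (TMM factors, filterByExpr by group, quasi-likelihood F test, limma 3.58.1, R 4.3.3), with Benjamini-Hochberg adjustment over all genes tested. Every genotype comparison used the 8 libraries of its tissue, the tissue comparison the 8 wild-type libraries, and the difference of effects all 16. SE is the log2 fold change over the root of F, and 95% intervals use the t distribution with the fit's degrees of freedom. The tests were checked on simulated counts. Levels per kb used merged exons of GENCODE M21 (GRCm38), which placed 21737 of 23420 symbols and all 44 members. Ratios were tested with SciPy 1.17.1 (Python 3.11.15, pandas 2.3.3), and figures drawn with matplotlib 3.10.9.

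Each mouse number occurs once per tissue in the labels, so the adipocyte and liver libraries of a mouse are paired. Deviations of the 2 from their group means correlated at -0.09 to 0.15 over genes. Alternatives were RLE factors, library totals, DESeq2 1.42.0, no filter, halved counts, all 16 libraries in 1 fit, age as a covariate, 76-day mice only, the mouse as a block, the collagen share without the 100 highest genes, and leaving out each library. Members were named with test values where they passed (where fewer than 5 did, the 5 with the smallest p). The leading member per kb of each class over the adipocyte libraries was also named. From each other list the 2 genes with the smallest p were named. Other members are given by level or added for comparison within a type after their values were seen.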

Additional observations from a re-analysis of the deposited data

Results flagged for a closer look

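In 16 of 122 groups of 4 libraries, 1 library lay far from the other 3 by Dixon's criterion. Chance alone meets it in about 1 in 20 groups of independent, normally spread values. The groups here are the same libraries read gene by gene, so 16 of 122 cannot be set against that rate. In knockout-labelled adipocytes, mouse ko_1137 was the high library for Col1a1 (72.1 CPM, against 21.98 to 25.4 in the other 3), Col1a2 (104, against 29.4 to 33.8), Col5a1 (119.6, against 74.1 to 77.3), Col16a1 (4.29, against 0.779 to 1.04) and Col5a3 (1205, against 849 to 885). Mouse ko_1152 was low for Col9a3 in both tissues (0.0577 CPM in adipocytes, against 0.124 to 0.138, and 0.171 in liver, against 0.318 to 0.344). These values rest on 2 to 6 counts per knockout-labelled adipocyte library and 8 to 16 per knockout-labelled liver library, and on reads that may belong to Tcfl5. In wild-type adipocytes the high libraries were wt_1153 for Col3a1 (509.9 CPM, against 481 to 483), wt_1135 for Col4a3 (1.08, against 0.388 to 0.466) and Col17a1 (1.34, against 0.268 to 0.339), and wt_1136 for Col5a3 (521, against 357 to 373).

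In knockout-labelled livers the high libraries were ko_1139 for Col6a1 (10.4 CPM, against 9.59 to 9.71) and Col20a1 (7.41, against 4.33 to 4.72) and ko_1151 for Col25a1 (1.21, against 0.341 to 0.402). In wild-type livers wt_1136 was low for Col13a1 (0.730 CPM, against 3.82 to 3.85) and Col12a1 (0.963, against 2.11 to 2.169).

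The genotype effect differed between adipocytes and liver by the test of the difference itself for 8 members. The log2 difference, adipocytes minus liver, was 1.58 for Col5a3, -1.66 for Col14a1, -1.86 for Col8a1, -1.98 for Col6a3, -1.99 for Col11a2, -2.14 for Col9a3, -2.22 for Col27a1 and -2.56 for Col13a1. For Col9a3 the limits of count filter and exon overlap given above apply.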

How the results depend on the processing

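The median SE of the log2 fold change in adipocytes was 0.356 over the tested members and 0.138 over all genes. Collagen genes called lower in knockout-labelled adipocytes numbered 4 with the 76-day mice alone, against 14. Over all genes in adipocytes, library totals gave 1293 higher and 3899 lower and the 76-day mice 832 and 898, against 2487 and 2362. In liver DESeq2 gave 53 higher and 49 lower over all genes and the 76-day mice 0 higher, against 3 and 0, and no filter, all 16 libraries or age each gave 1 lower. For the difference, library totals gave 683 and 2242, against 1544 and 1301. Between tissues they gave 4 lower collagen genes, against 7, and 3064 lower genes, against 5337. Without the 100 highest genes, Col4a1 among them, the collagen share was 0.452% in knockout-labelled and 0.448% in wild-type adipocytes. In liver it was 0.194% in knockout-labelled and 0.223% in wild-type mice. Their causes were not tested.

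Leaving out 1 library gave, in adipocytes, 2 to 3 higher and 6 to 16 lower collagen genes; in liver 1 to 3 higher and 0 to 1 lower of all genes; for the difference 1 to 2 and 4 to 12 collagen genes. Col6a1 changed sign: in adipocytes with library totals (-0.0635) and when 1 library was left out (-0.11 to 0.26); in liver with age (-0.0205) and when 1 was left out (-0.0933 to 0.17); for the difference with library totals (-0.0921) and when 1 was left out (-0.10 to 0.25). With the mouse as a replicate block the difference gave 1 higher and 5 lower collagen genes (1171 and 1074 of all genes) and the tissue comparison 18 and 7 (5598 and 5161). The block ended the calls of Col13a1 and Col8a1 for the difference, and halved counts that of Col8a1.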
